A study of Mus musculus with 33 samples.

Results

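Single mouse ventricular cardiomyocytes that carried the geminin reporter at postnatal day 19 (P19) were set against reporter-carrying cardiomyocytes of embryonic day 14.5 (E14.5). The reporter, mAG-hGem, is Azami Green fused to part of human geminin. It belongs to the FUCCI cell-cycle indicator system, and the protein builds up in S, G2 and M phases and is destroyed as cells leave mitosis. Of the 33 cells in the series, 18 are compared here: the 8 P19 cells and the 10 E14.5 cells labelled mAG-hGem positive. The other 15 cells were reporter-negative (4 at P19 and 11 at E14.5) and are used only for values set beside a few results. All 33 cells came from mAG-Geminin transgenic mice, so every group carried the transgene. Hearts were digested with enzymes, cells were sorted by fluorescence, and the RNA of each cell was amplified as antisense RNA and made into a TruSeq library. Before sequencing, cells were kept when a PCR found Tnnt2, a cardiomyocyte troponin, and did not find Pdgfrb, a receptor of mural cells and fibroblasts. The series title concerns lamin B2, nuclear envelope permeability and cardiomyocyte regeneration. The labels name no animal, sex, strain or promoter driving the reporter, and it cannot be told how many hearts each age represents. Each age therefore counts as 1 sample. No test, standard error or p-value is given, and the spread between cells is a spread within each collection only, which may be technical or biological. In such a comparison, fewer RNA molecules per cell and a change of a gene relative to the rest cannot be told apart.

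Levels are in counts-per-million (CPM), a gene's share of a cell's reads assigned to genes, and are written as lowest, median and highest over the cells of a group. Cells are numbered in deposition order, which has no meaning beyond naming them. Differences are log2 ratios of the CPM of counts summed over the 8 P19 cells to that over the 10 E14.5 cells, so a negative value is lower at P19. A group with 0 counts was put at 3 counts, and its fold is then a lower bound ("at least"). A pair of descriptions is used throughout: at least a 2-fold ratio, and no overlap, meaning that every cell of 1 age lay beyond every cell of the other. Among 13492 genes with at least 10 counts over the 18 cells, 6268 (46.5%) were at least 2-fold lower at P19 and 3420 (25.3%) at least 2-fold higher. No overlap was found for 378 genes (2.8%) lower in every P19 cell and 331 (2.45%) higher in every P19 cell. The median gene had a log2 ratio of -0.77, and counts of list members below are to be read against these shares. Totals ranged from 11872374 to 60231759 counts at E14.5 and from 13239789 to 40110117 at P19. A median of 8703 genes per E14.5 cell and 8722 per P19 cell had reads. The 10 most abundant genes took 7.8 to 12.3% of a cell's counts at E14.5 and 21.7 to 25% at P19. Other scalings put the median gene between -0.83 (mean of the cells' CPM) and -0.21 (mean of log2 values), with TMM factors at -0.56, so lists with medians near this range carry no direction.

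Cardiomyocytes divide in the fetal heart and stop dividing soon after birth, when many of them become binucleate or polyploid. In the same weeks they change from glucose and lactate to fatty acids as the main fuel, fill with mitochondria and exchange fetal for adult isoforms of sarcomere proteins. Genes for mitosis share promoter elements: the cell-cycle homology region (CHR), which the DREAM and MYB-MuvB complexes bind, and CCAAT boxes, which NF-Y binds. Genes for DNA replication more often carry E2F sites.

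Cdk1, which triggers entry into mitosis (chr10:69335146-69352938, minus strand, mm10), had 248, 1528 and 3077 CPM at E14.5 and 0 counts in all 8 P19 cells. A count of 0 over the 8 P19 cells allows up to 0.0146 CPM (3 counts), so Cdk1 was at least 134804-fold lower than at E14.5. Such limits cover counting error only. Myl3, the ventricular essential light chain (chr9:110741861-110769798, plus strand, mm10), had 170, 1042 and 4094 CPM at E14.5 and 14193, 21012 and 39455 CPM at P19, a log2 ratio of 3.67. All P19 cells were above all E14.5 cells for Myl3. Tnnt2 was read in every cell, at 964, 3743 and 7574 CPM at E14.5 and 4617, 6118 and 7591 CPM at P19, and the ages overlapped. Cells were kept for Tnnt2, so its reads say nothing more about the label. Cdk1 goes with the reporter label at E14.5, but no P19 cell labelled positive had a read of it. Endogenous mouse geminin (Gmnn), whose human counterpart gave the reporter, had 31.0, 113 and 228 CPM at E14.5 and 0, 33.3 and 66.8 CPM at P19. Its log2 ratio was -2.15, P19 cell 5 had no read of it, and the ages overlapped. In reporter-negative P19 cells Gmnn had 32.2, 56.3 and 77.3 CPM, which overlaps the reporter-positive range. Pdgfrb had 438 counts in P19 cell 8, 72 in E14.5 cell 9 and none in the other 16 cells. Its log2 ratio of 2.89 rested on those cells: it was -3.99 without P19 cell 8 and 7.20 without E14.5 cell 9.

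Promoters of a few cell-cycle genes are printed to show what these elements look like. RefSeq promoter windows of 300 bases (250 before to 50 after the transcription start, GRCm38.p6) matched 9509 of the 13492 genes. The CHR was searched as TTTGAA and its complement TTCAAA, the CCAAT box as CCAAT and ATTGG, and E2F sites as TTTGGCGC, TTTCCCGC, TTTGCCGC and TTTCGCGC on both strands. E2F matches on opposite strands can overlap. Shown are 120 bases before the start of the 4 genes with the largest lower ratios among 19 cell-division genes that had a CHR there and a single window. They were chosen for the CHR, so its presence in them is no finding, and genes such as Anln and Smc2, with a larger difference than Top2a, did not meet both conditions. Starts are those of RefSeq and can differ from the gene bounds given for Cdk1 and Myl3, which are GENCODE's: the printed bases of Myl3 and some of those of Cdk1 lie inside those bounds. Capitals mark the CHR and CCAAT matches.
Cdk1 (chr10:69352913-69353032, minus strand): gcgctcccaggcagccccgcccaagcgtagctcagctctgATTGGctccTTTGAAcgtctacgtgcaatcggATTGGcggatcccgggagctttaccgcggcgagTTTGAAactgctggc
Top2a (chr11:99024190-99024309, minus strand): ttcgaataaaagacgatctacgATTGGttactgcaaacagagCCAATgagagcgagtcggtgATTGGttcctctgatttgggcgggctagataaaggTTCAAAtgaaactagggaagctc
Fam83d (chr2:158767979-158768098, plus strand): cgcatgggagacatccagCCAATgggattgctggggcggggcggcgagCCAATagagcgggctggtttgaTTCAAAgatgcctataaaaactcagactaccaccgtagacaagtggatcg
Ckap2l (chr2:129297213-129297332, minus strand): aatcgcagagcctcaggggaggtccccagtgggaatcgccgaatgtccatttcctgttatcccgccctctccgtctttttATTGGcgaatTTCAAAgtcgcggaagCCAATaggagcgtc
Cdk1 held 2 CHR and 2 CCAAT matches in these bases, Top2a 1 and 3, and Fam83d and Ckap2l 1 and 2 each. For contrast, Mcm6 and Cdc25a are the first 2 of 5 replication and G1/S genes chosen the same way with an E2F match, and here capitals mark E2F.
Mcm6 (chr1:128359706-128359825, minus strand): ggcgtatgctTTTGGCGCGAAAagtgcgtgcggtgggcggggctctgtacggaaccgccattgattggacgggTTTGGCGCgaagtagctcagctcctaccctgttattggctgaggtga
Cdc25a (chr9:109875459-109875578, plus strand): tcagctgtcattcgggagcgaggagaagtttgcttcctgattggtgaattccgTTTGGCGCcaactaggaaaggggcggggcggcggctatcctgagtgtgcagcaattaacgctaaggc
Mcm6 had 3 E2F matches, of which 2 overlap on opposite strands, and Cdc25a had 1. Neither had a CHR in these bases. Myl3, the gene higher at P19, is shown with its CCAAT match in capitals.
Myl3 (chr9:110763558-110763677, plus strand): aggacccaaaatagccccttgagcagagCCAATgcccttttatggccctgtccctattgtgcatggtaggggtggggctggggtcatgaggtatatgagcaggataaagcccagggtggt
It had 1 CCAAT match and neither a CHR nor an E2F match in these bases.

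Over whole windows the CHR was found in 16 of 23 genes for spindle motors and microtubule factors with a promoter (69.6%). It was found in 8 of 14 mitotic kinases and cyclins (57.1%), 7 of 13 condensin and cohesin genes (53.8%), 8 of 16 cytokinesis genes (50%) and 13 of 29 kinetochore genes (44.8%). Among all measured genes with a window the share was 14.3%. Genes at least 2-fold lower at P19 held it in 16%, genes at least 2-fold higher in 13.5% and genes within 2-fold in 12.3%. Shares close to those of the division lists also stood in other lists: 6 of 14 adrenergic, muscarinic and natriuretic genes (42.9%), 6 of 16 G1/S regulators, 3 of 8 MuvB factors and 3 of 8 fibroblast markers (37.5% each). CCAAT matches stood in 13 of 14 mitotic kinases and cyclins (92.9%), 21 of 29 kinetochore genes (72.4%) and 16 of 23 spindle genes (69.6%) against 43.1% of all genes. They stood in 6 of 13 condensin and cohesin genes (46.2%) and 7 of 16 cytokinesis genes (43.8%), near that share, and in 16 of 18 CDK inhibitors and arrest genes (88.9%). E2F matches stood in 14 of 32 DNA replication genes (43.8%) against 4.61% of all, while the CHR stood in 4 of those 32 (12.5%). E2F matches were not particular to replication. They stood in 7 of 16 G1/S regulators (43.8%), 5 of 13 condensin and cohesin genes (38.5%) and 2 of 8 MuvB factors (25%). Oncofetal RNA-binding and chromatin factors held them in 5 of 24 (20.8%). The other division lists ranged from 0% for cytokinesis to 10.3% for kinetochore genes. The ERR half-site AAGGTCA, which estrogen-related receptors bind, was in 3 of 24 citric acid cycle genes (12.5%) and 4 of 43 oxidative phosphorylation genes (9.3%) against 3.78% of all. It was in 1 of 24 fatty acid genes (4.17%) and in 4% of genes at least 2-fold higher, near the share of all. A match describes letters in the window and was not tested as a binding site.

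**Figure D1:**
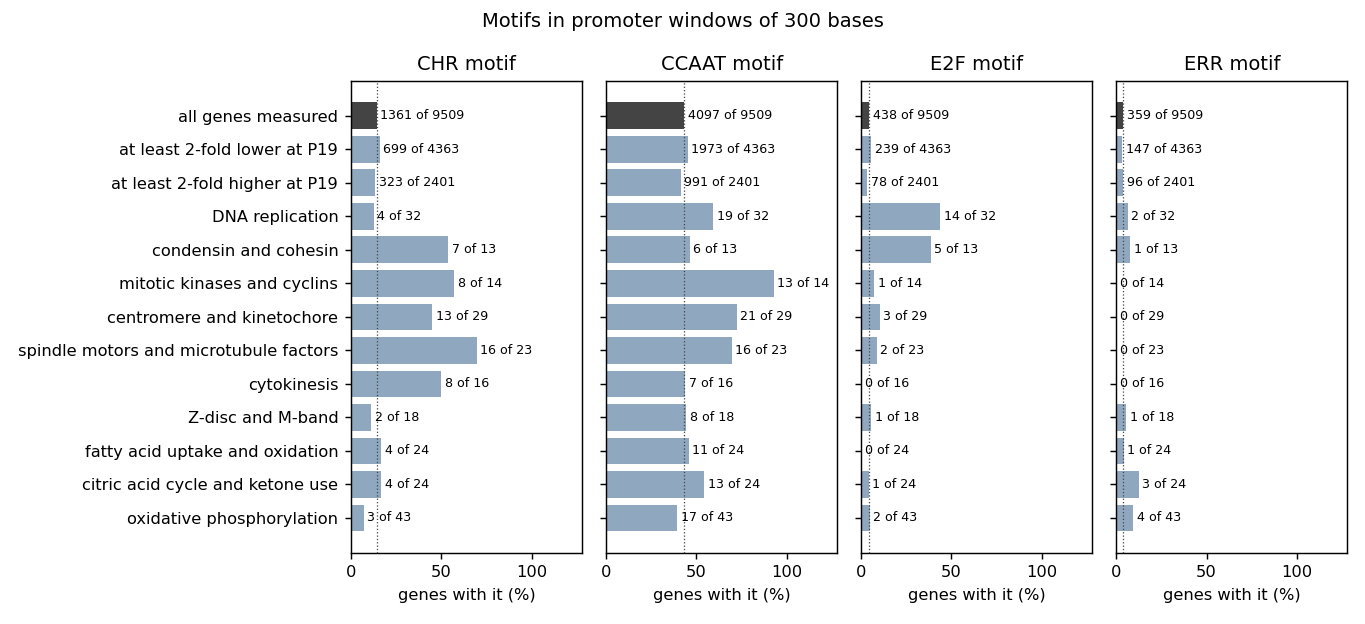
Share of genes (x axis, %) whose 300-base promoter window holds each motif, for all measured genes, for genes past 2-fold and for 10 gene lists. Numbers at the bars are genes with the motif of genes with a window, and dotted lines mark the share over all genes. The CHR reaches 16 of 23 spindle genes, and the E2F motif 14 of 32 replication genes and 5 of 13 condensin and cohesin genes.

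Genes that carry out mitosis were nearly all lower at P19. The lists of mitotic kinases and cyclins, of condensin and cohesin, and of kinetochore, spindle and cytokinesis genes held 127 measured genes together. Of these, 115 were at least 2-fold lower and 3 at least 2-fold higher, with a median log2 ratio of -8.62, and 69 did not overlap in the lower direction. There were 43 members with no count in any P19 cell, while all 127 had counts at E14.5. Their summed level was 10829, 37672 and 53875 CPM at E14.5 and 1991, 2445 and 3206 CPM at P19. Every P19 cell lay below every E14.5 cell. In P19 reporter-negative cells the sum was 1581, 2413 and 2584 CPM, a range that the reporter-positive cells overlapped. E14.5 reporter-negative cells had 3950, 7253 and 21508 CPM.

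Among mitotic kinases and cyclins, all 21 measured genes were at least 2-fold lower at P19 (median -11.72) and 14 did not overlap. Top2a, the topoisomerase that untangles sister chromatids, had 75.7, 544 and 1592 CPM at E14.5 and no count at P19. Ccnb1, the cyclin B1 partner of Cdk1, had 10.8, 212 and 1413 CPM at E14.5 and no count at P19. Both were absent from every P19 cell, and were at least 58297-fold and at least 42747-fold lower. Plk1 and Aurka, kinases of spindle assembly, were also without a count at P19. Plk1 was read in 9 of 10 E14.5 cells with a median of 16.7 CPM, and Aurka in 10 of 10 with a median of 24.6 CPM. Wee1, the kinase that restrains Cdk1, was the member nearest to no change. It had 22.5, 66.5 and 247 CPM at E14.5 and 0, 47.8 and 94.5 CPM at P19, a log2 ratio of -1.28 that was -0.87 without E14.5 cell 10. The ages overlapped for Wee1.

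P19 cell 8 had reads of more division genes than any other P19 cell. It had a read of 71 of the 127 division members, against 32 to 46 in the other 7 reporter-positive P19 cells. Of the 127, 15 were read in that cell alone among the 8. Cell 8 also had the most counts (40110117) and the most genes with a read (10867) of the 8. P19 reporter-negative cell 1, with 40045791 counts and 10717 genes read, had a read of 68 of the 127 members. Mki67, the proliferation antigen coating mitotic chromosomes, had 94.9, 527 and 2160 CPM at E14.5. At P19 all 224 of its counts were in cell 8, at 5.58 CPM. Ccna2 and Birc5 were likewise read at P19 in cell 8 alone, at 4.74 and 10.05 CPM, and Ccnb2 reached 7.33 CPM there. These levels lay under the lowest E14.5 cell for each gene (61.4, 135 and 54.1 CPM). Without cell 8 the log2 ratios moved from -9.32 to -15.23 for Mki67, from -8.50 to -14.17 for Ccna2, from -9.54 to -16.29 for Birc5 and from -7.62 to -14.52 for Ccnb2. The same cell held the Pdgfrb counts and 2731 counts of the endothelial cadherin Cdh5. The part of other cell types' RNA in its mitotic reads was not tested. The summed level of mitotic kinases and cyclins in cell 8 was 78.1 CPM, within the P19 range of 0.0694 to 94.9 CPM.

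Chromosome structure, kinetochore and spindle genes were lower too, with a few exceptions. Of 18 condensin and cohesin genes, 15 were at least 2-fold lower (median -4.93, and -6.02 without P19 cell 8), 7 of them without overlap. Smc4, a condensin core ATPase, had 435, 1506 and 2900 CPM at E14.5 and 0, 12.6 and 50.8 CPM at P19 (log2 ratio -6.49). Rad21, the cohesin ring subunit cut at anaphase, had 320, 850 and 2728 CPM at E14.5 and 0.553, 112 and 214 CPM at P19 (-3.92). Neither gene overlapped between ages, and both kept reads in most P19 cells. Pttg1, securin, which holds separase inactive until anaphase, went the other way. It had 0.792, 13.9 and 43.2 CPM at E14.5 and 46.2, 84.0 and 216 CPM at P19, a log2 ratio of 1.96. Every P19 cell was above every E14.5 cell for Pttg1. Among 39 kinetochore genes, 36 were at least 2-fold lower and 0 higher (median -7.86, and -6.51 without E14.5 cell 7), 17 without overlap. Spc25, an Ndc80 complex subunit, had 186, 680 and 3352 CPM at E14.5 and was read at P19 in cell 5 alone, at 0.35 CPM. Cenpw, an inner kinetochore protein, had 104, 462 and 1040 CPM at E14.5 and 0, 0 and 8.66 CPM at P19 (-7.93). Cenpa, the centromeric histone, kept more reads: 14, 182 and 642 CPM at E14.5 and 0, 53.2 and 88.5 CPM at P19 (-2.74), with overlap. The farnesylated kinetochore protein Cenpf also kept reads, at 0, 55.8 and 216 CPM against 13.3, 442 and 1031 CPM, with a log2 ratio of -2.87 that was -3.62 without P19 cell 6.

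All 27 spindle genes were at least 2-fold lower (median -11.11, and -12.07 without P19 cell 8), and 19 did not overlap. Cdca8, borealin of the chromosomal passenger complex, had 32.0, 412 and 1064 CPM at E14.5 and no count at P19. Tuba1b, an alpha tubulin, had 1136, 3917 and 11830 CPM at E14.5 and 375, 562 and 704 CPM at P19 (-3.82). Tubulin genes have near-identical copies, and the division of their reads is uncertain. In the cytokinesis list 16 of 22 genes were at least 2-fold lower and 1 higher (median -4.06), 12 of the lower ones without overlap. Anln, the actin-binding anillin of the contractile ring, had 319, 684 and 1900 CPM at E14.5 and 1 P19 cell with a trace of 0.0553 CPM. Ect2, which loads RhoA with GTP at the division plane, had 39.9, 547 and 1436 CPM at E14.5 and no count at P19. Sept2, a septin, was lower without vanishing: 684, 1137 and 2014 CPM at E14.5 and 58.7, 185 and 343 CPM at P19 (-2.39). Non-muscle myosin Myh10 had 50.6, 135 and 280 CPM at E14.5 and 0, 2.77 and 21.5 CPM at P19, a log2 ratio of -4.53 that was -5.27 without P19 cell 6. The median over the cytokinesis list was -7.61 in the 3 P19 cells with under 100 CPM of the endothelial gene Fabp4.

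Of the anaphase-promoting complex and its partners, 8 of 18 genes were at least 2-fold lower and 4 higher (median -0.72), close to all genes. The lower ones included Ube2c and Cdc20, and also the subunits Cdc16 and Cdc27. Leaving out each cell gave -2.85 to -1.91 for Cdc16 and -3.21 to -2.14 for Cdc27. Ube2c, the ubiquitin-conjugating enzyme of the complex, had 81.4, 805 and 3360 CPM at E14.5 and no count at P19. Cdc20, the mitotic activator, was read in 9 of 10 E14.5 cells with a median of 17.0 CPM and in no P19 cell. Centriole duplication genes were at least 2-fold lower in 15 of 20 cases (median -3.94). Plk4, the kinase that starts centriole duplication, had 8.43, 51.2 and 204 CPM at E14.5 and was read in 2 P19 cells at up to 1.35 CPM in cell 8; its log2 ratio of -8.55 was -13.04 without that cell. Pcnt, pericentrin, was an exception in this list, with 0, 0.325 and 87.7 CPM at E14.5 and 19.8, 51.6 and 73.1 CPM at P19 (2.0). Pcnt was read in 6 of 10 E14.5 cells and in all 8 P19 cells, and the ages overlapped.

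**Figure D2:**
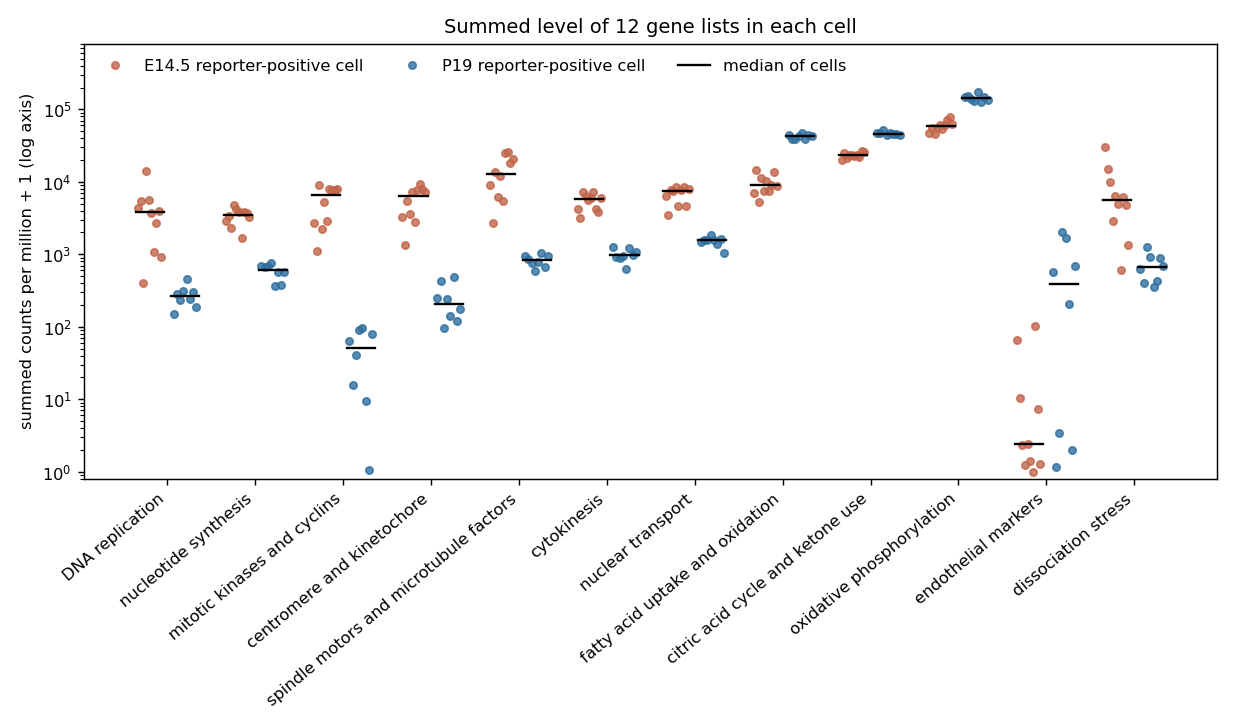
Summed level of 12 gene lists in each cell (CPM plus 1, log axis), with 1 point per cell, E14.5 reporter-positive cells on the left and P19 ones on the right of each list, and bars at the median. The 5 cell-division and nucleotide lists, nuclear transport and the 3 energy lists separate the ages without overlap, whereas DNA replication, endothelial markers and dissociation stress overlap.

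Replication genes were lower at P19 in most cases, but with more overlap than mitotic genes. Of 40 DNA replication genes, 35 were at least 2-fold lower and 0 higher (median -4.70), and none was free of overlap. Their summed level was 400, 3826 and 14220 CPM at E14.5 and 147, 263 and 451 CPM at P19. E14.5 cell 3, the lowest, lay inside the P19 range. The E14.5 cells with the lowest replication sums (cells 3, 7 and 10, at 400, 1078 and 912 CPM) had mitotic kinase sums of 8979, 7866 and 8016 CPM, and cell 4, the highest for replication, had 2252 CPM. P19 cells were low for both. Pcna, the sliding clamp of the replication fork, had 25.1, 1672 and 8396 CPM at E14.5 and 0.833, 62.3 and 181 CPM at P19 (-4.52), with overlap. Prim1, the primase catalytic subunit, was read in 9 of 10 E14.5 cells with a median of 93.1 CPM and in no P19 cell. Mcm4 and Mcm6 belong to the replicative helicase. Mcm4 had 0.0478, 332 and 1708 CPM at E14.5 and 0, 0 and 14 CPM at P19 (-6.71, and -8.64 without P19 cell 8). Mcm6 had 0, 161 and 525 CPM at E14.5, and at P19 its reads were nearly all in cell 1, at 17.2 CPM (-7.15, and -13.90 without that cell).

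Of 16 nucleotide synthesis genes, 12 were at least 2-fold lower and 0 higher (median -2.09, and -2.75 without P19 cell 7), and 4 did not overlap. Rrm1 and Rrm2 form ribonucleotide reductase, which makes deoxynucleotides. Rrm1 had 162, 337 and 833 CPM at E14.5 and 0, 6.19 and 14.7 CPM at P19 (-5.96). Rrm2 had 152, 416 and 1015 CPM at E14.5 and 0, 2.96 and 40.7 CPM at P19 (-6.56, and -7.56 without P19 cell 5). Tyms, thymidylate synthase, had 3.0, 75.0 and 272 CPM at E14.5 and 0, 0.0766 and 0.933 CPM at P19 (-9.52, and -10.49 without P19 cell 5). Paics, an enzyme of purine synthesis, remained well read at P19: 558, 1370 and 2531 CPM at E14.5 and 212, 304 and 407 CPM at P19 (-2.09). None of these 4 overlapped.

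Of 21 G1/S regulators, 18 were at least 2-fold lower and none higher (median -4.85, and -4.15 without E14.5 cell 1), and 1 did not overlap. That gene was Cks1b, a small Cdk-binding subunit, with 426, 920 and 3168 CPM at E14.5 and 0, 13.7 and 85.8 CPM at P19 (-5.90, and -6.57 without P19 cell 5). Mycn, a growth-promoting transcription factor, and E2f1, an activator of S-phase genes, were without a count at P19 and were read in 9 and 7 of 10 E14.5 cells with medians of 220 and 13.3 CPM. Cdc25a, the phosphatase that activates Cdks, had 0.219, 30.9 and 279 CPM at E14.5 and 0, 0.399 and 9.88 CPM at P19 (-5.07, and -5.99 without P19 cell 3). Cyclin D2 (Ccnd2) was not lower. It had 5.77, 25.1 and 367 CPM at E14.5 and 27.6, 135 and 208 CPM at P19, a log2 ratio of 0.57 that was 1.82 without E14.5 cell 10, and the ages overlapped.

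Genes known for arrest were not higher as a list. Of 19 CDK inhibitors and arrest genes, 13 were at least 2-fold lower and 2 higher (median -2.52, and -3.32 or -3.20 without P19 cell 2 or 3). Cdkn1c, the imprinted inhibitor p57, had 19.1, 212 and 688 CPM at E14.5 and 0, 1.72 and 127 CPM at P19 (-3.91, and -5.31 without P19 cell 4). Cdkn1b, p27, had 17.4, 152 and 286 CPM at E14.5 and 0, 10.7 and 30.7 CPM at P19 (-3.43). Both ages overlapped for each of these inhibitors. Cdkn1a, p21, was low at both ages, with medians of 1.59 CPM at E14.5 and 3.46 CPM at P19 and a log2 ratio of -0.98 that was -0.05 without E14.5 cell 8 and -1.43 without P19 cell 7. Ccng1, cyclin G1, a p53 target, was the clear exception: 104, 184 and 402 CPM at E14.5 and 606, 907 and 1309 CPM at P19. Its log2 ratio was 2.26, and every P19 cell was above every E14.5 cell. Meis2, a homeobox factor related to the postnatal cell-cycle regulator Meis1, had 86.0, 325 and 691 CPM at E14.5 and 1.32, 78.0 and 97.3 CPM at P19 (-2.52). Of 13 MuvB and pocket-protein factors, 9 were at least 2-fold lower and 1 higher (median -4.07, and -3.15 or -2.57 without E14.5 cell 2 or 8). Foxm1 and Mybl2, which switch on G2/M genes with MuvB, were without a count at P19 but were read in only 5 and 3 E14.5 cells. Rbl1, the pocket protein p107, had 0.877, 57.4 and 142 CPM at E14.5 and 0, 0.712 and 4.38 CPM at P19 (-6.18). Rbbp4, a MuvB and chromatin subunit, did not overlap, at 183, 273 and 487 CPM against 50.6, 69.7 and 156 CPM (-2.10). E2f4, the repressive E2F of DREAM, had medians of 2.41 CPM at E14.5 and 2.74 CPM at P19 with a log2 ratio of 0.17.

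Lamina and envelope genes shape the nucleus, the subject of the series title. Of 16 nuclear lamina and envelope genes, 9 were at least 2-fold lower and 2 higher (median -1.57, and -0.83 without E14.5 cell 8), and their sums of 1585, 2194 and 3122 CPM at E14.5 and 311, 463 and 679 CPM at P19 did not overlap. Tmpo, the lamina-associated polypeptide LAP2, had 978, 1354 and 2499 CPM at E14.5 and 0, 9.34 and 82.5 CPM at P19 (-5.87, and -6.54 without P19 cell 8). Lmnb1, lamin B1, had 0.501, 18.3 and 95.5 CPM at E14.5 and 0, 0 and 4.22 CPM at P19 (-4.93). It was read in 3 of 8 P19 cells, and its ratio was -6.61 without P19 cell 6 and -4.16 without E14.5 cell 9. Lmnb2, lamin B2, had 0.191, 2.39 and 26.6 CPM at E14.5 and was read in 2 P19 cells, at up to 2.16 CPM in cell 3 (-4.15, and -10.18 without that cell). Lmna, encoding lamins A and C, had 0, 4.21 and 27.4 CPM at E14.5 and 11.7, 23.7 and 70.0 CPM at P19 (1.66, and 2.32 without E14.5 cell 10). Lmnb1 and Lmnb2 were lower at P19 and Lmna higher, with overlap for all 3. Of 29 nuclear transport genes, 19 were at least 2-fold lower and 1 higher (median -1.83), and the sums of 3542, 7549 and 8527 CPM at E14.5 and 1049, 1578 and 1860 CPM at P19 did not overlap. Ran, the GTPase that directs transport, had 971, 2304 and 4597 CPM at E14.5 and 237, 433 and 609 CPM at P19 (-2.75). Xpo1, the exportin for leucine-rich signals, had 397, 797 and 1741 CPM at E14.5 and 11.1, 95.6 and 199 CPM at P19 (-3.11). Cse1l, which returns importin alpha to the cytoplasm, had 426, 957 and 2554 CPM at E14.5 and 63.1, 192 and 390 CPM at P19 (-2.50). None of these 3 overlapped.

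**Figure D3:**
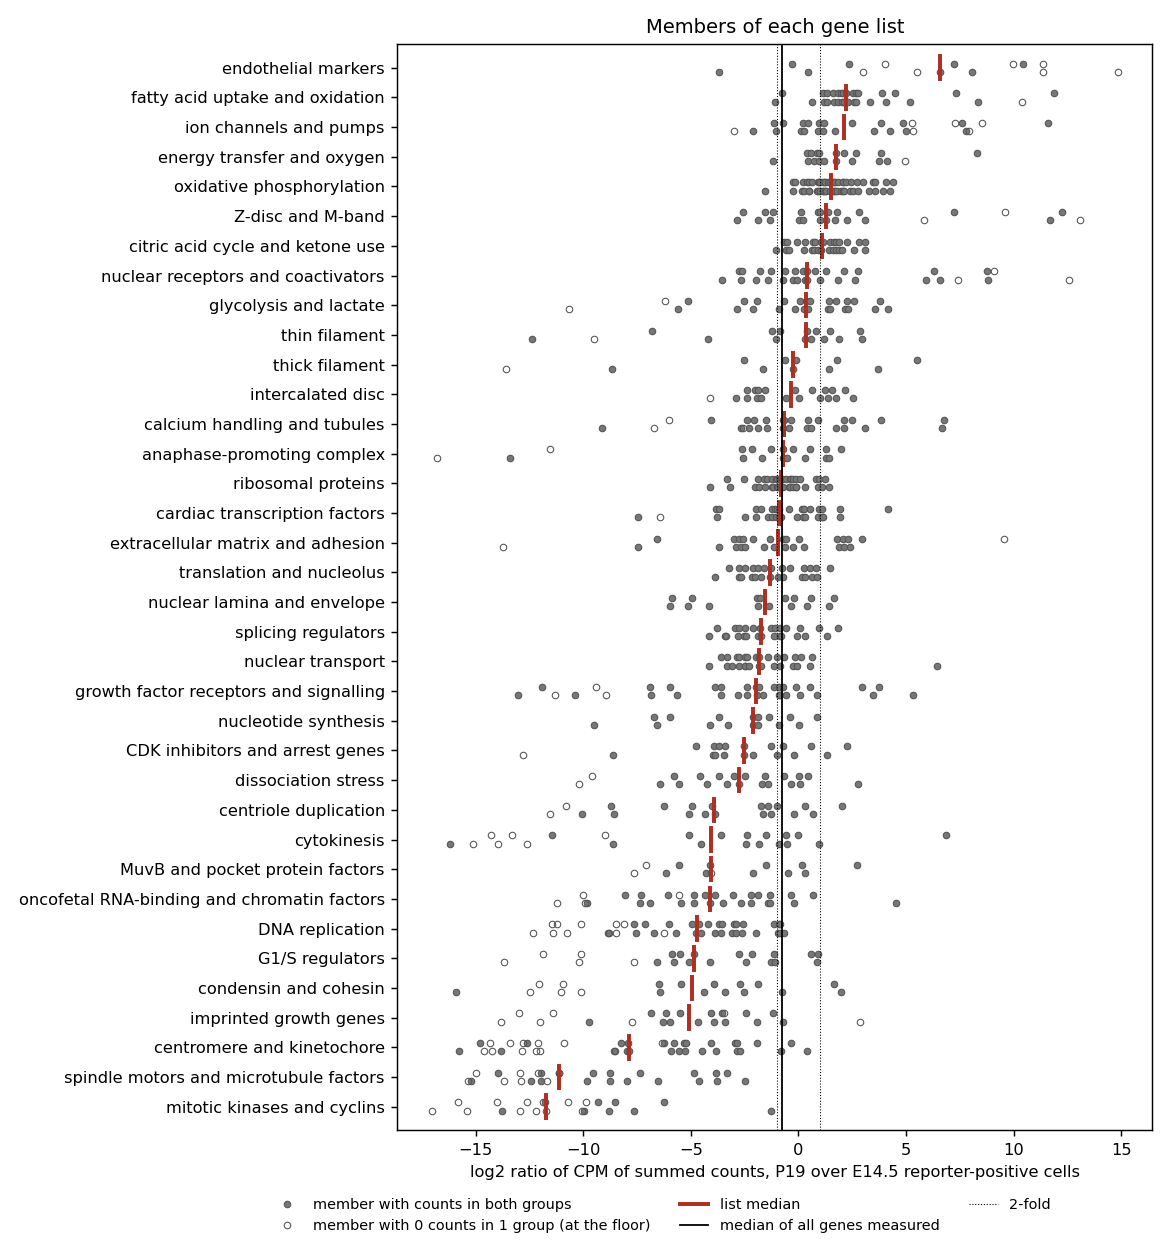
Log2 ratio of each member (points) of each gene list, P19 over E14.5 reporter-positive cells, on the CPM of summed counts, with open points for members with 0 counts in 1 group (placed at the 3-count floor) and red bars for list medians. List medians run from -11.72 for mitotic kinases and cyclins to 6.57 for endothelial markers, with the vertical line at the all-gene median of -0.77.

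Sarcomere genes differed in both directions. The thick filament list had 4 of 11 genes at least 2-fold lower and 4 higher, the thin filament list 6 and 5 of 16, and the Z-disc and M-band list 6 and 13 of 25 (median 1.3). Over all genes 46.5% were lower and 25.3% higher, so a split in both directions is not particular to these lists. Myh6, the fast adult alpha myosin heavy chain of the mouse ventricle, had 38.5, 169 and 572 CPM at E14.5 and 5067, 8407 and 15786 CPM at P19 (5.49). Myh7, the slow fetal beta chain, had 19.1, 143 and 507 CPM at E14.5 and 11.5, 35.8 and 247 CPM at P19 (-1.63, and -2.47 without P19 cell 6). Myh6 did not overlap and Myh7 did. Mybpc3, cardiac myosin-binding protein C, had 243, 388 and 821 CPM at E14.5 and 1024, 1517 and 1875 CPM at P19 (1.79), without overlap. Myl2, the ventricular regulatory light chain, had medians of 3927 and 5917 CPM and a log2 ratio of -0.10, and titin (Ttn) had 3586 and 3101 CPM and -0.27. The ages overlapped for both. The atrial light chains were lower: Myl7 had 9.0, 85.1 and 466 CPM at E14.5 and no count at P19, and Myl4 had 50.3, 406 and 1411 CPM at E14.5 and 0, 0.0766 and 5.34 CPM at P19. Neither overlapped. For Myl4 the log2 ratio of -8.65 was -10.34 without P19 cell 3 and -8.01 without E14.5 cell 9.

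In the thin filament, slow skeletal troponin I (Tnni1), the fetal form, had 198, 524 and 1046 CPM at E14.5 and was read at P19 in cell 4 alone, at 1.41 CPM. Cardiac troponin I (Tnni3) had 233, 372 and 800 CPM at E14.5 and 2334, 3737 and 5586 CPM at P19 (2.96). Tpm1, tropomyosin, had 580, 1557 and 4261 CPM at E14.5 and 10052, 14456 and 19920 CPM at P19 (2.87). All 3 genes separated the ages completely. Tnnc1, troponin C, overlapped, at 68.5, 551 and 1402 CPM against 1209, 1560 and 2468 CPM (1.19), and so did cardiac actin Actc1, at 3906, 6976 and 15817 CPM against 10434, 14965 and 22122 CPM (0.82). In the Z-disc and M-band list, Trim54, a ubiquitin ligase of the sarcomere, had no count at E14.5 and 38.1, 102 and 156 CPM at P19, at least 8654-fold higher. Myom2, the adult M-band myomesin, was read in 1 E14.5 cell at 0.674 CPM and had 62.4, 137 and 229 CPM at P19. Xirp2 was read in 2 E14.5 cells at up to 0.864 CPM and had 131, 234 and 412 CPM at P19. Those 3 were close to absent at E14.5 and present in every P19 cell. Myoz2, which binds calcineurin at the Z-disc, had 527, 742 and 1389 CPM at E14.5 and 3977, 5973 and 7457 CPM at P19 (2.82). Nexn, an actin-binding Z-disc protein, was lower in every P19 cell, at 3176, 4392 and 10934 CPM against 899, 1900 and 3109 CPM (-1.32). Ankrd1, a stretch-responsive repeat protein, was also lower, with 396, 3425 and 23922 CPM at E14.5 and 127, 468 and 1285 CPM at P19 (-2.88). The ages overlapped for Ankrd1, E14.5 cell 6 being the highest.

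In the calcium list 12 of 29 genes were at least 2-fold lower and 8 higher, near the 46.5% and 25.3% of all genes. Of the higher ones, 7 did not overlap, against 2.45% of all genes higher without overlap. Genes of the sarcoplasmic reticulum were among the higher. Atp2a2, the SERCA2 pump, had 961, 2181 and 2611 CPM at E14.5 and 10935, 14991 and 18658 CPM at P19 (3.10). Its inhibitor phospholamban (Pln) had 1102, 2571 and 3946 CPM at E14.5 and 8461, 11081 and 14762 CPM at P19 (2.13). Hrc, a luminal calcium-binding protein, had 0, 0.438 and 9.28 CPM at E14.5 and 50.1, 130 and 263 CPM at P19 (6.76, and 7.57 without E14.5 cell 1). No cell overlapped for any of these. S100a1, a calcium sensor that acts on SERCA2 and the ryanodine receptor, had 1.46, 10.9 and 20.2 CPM at E14.5 and 109, 187 and 603 CPM at P19 (3.85), and Dhrs7c, a sarcoplasmic reticulum dehydrogenase, was read in 4 E14.5 cells at up to 10.2 CPM and had 78.4, 95.1 and 235 CPM at P19. The release channel Ryr2 had medians of 516 and 901 CPM with overlap (0.92), and triadin (Trdn) 1926 and 2332 CPM (0.44). Slc8a1, the sodium-calcium exchanger, had 1472, 4163 and 7378 CPM at E14.5 and 138, 547 and 861 CPM at P19 (-2.69), without overlap. Cacna1c, the L-type channel pore, had 166, 674 and 2162 CPM at E14.5 and 0.278, 191 and 488 CPM at P19 (-1.52), with overlap. Cav3, the muscle caveolin of T-tubules and caveolae, was higher in every P19 cell, at 2.67, 15.2 and 78.3 CPM against 79.5, 89.4 and 200 CPM (2.10, and 2.87 without E14.5 cell 9).

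Of 28 ion channel and pump genes, 17 were at least 2-fold higher and 4 lower (median 2.10, and 2.99 or 3.20 without E14.5 cell 3 or 9). Of these, 3 did not overlap, Fxyd1 and Kcnj5 among them. Fxyd1, phospholemman, the regulator of the sodium pump, had 1.37, 7.59 and 29 CPM at E14.5 and 97.7, 136 and 253 CPM at P19 (3.49). Kcnj5, a subunit of the acetylcholine-gated potassium channel, had 0, 2.32 and 21.4 CPM at E14.5 and 28.7, 46.5 and 106 CPM at P19 (4.24, and 4.94 without E14.5 cell 1). At the intercalated disc, which joins cells end to end, 9 of 20 genes were at least 2-fold lower and 6 higher. These counts were near the 46.5% and 25.3% of all genes. Adherens genes were among the lower ones: Ctnnb1, beta-catenin, had 559, 1059 and 1753 CPM at E14.5 and 101, 268 and 367 CPM at P19 (-1.92), and Ctnna3, alpha-T-catenin, 407, 887 and 1808 CPM and 4.41, 116 and 376 CPM (-2.89). Dsp, desmoplakin of the desmosome, was higher, at 68.2, 156 and 295 CPM against 351, 503 and 1187 CPM (1.73). These 3 did not overlap, while connexin 43 (Gja1) had medians of 726 and 734 CPM and a log2 ratio of -0.15. Among receptors, Adra1b, an alpha-1 adrenergic receptor, was read in 4 E14.5 cells and had 11.9, 64.7 and 246 CPM at P19 (3.87, and 5.78 without E14.5 cell 10). Nppa, the atrial natriuretic peptide, was read in 5 E14.5 cells at up to 149 CPM and in no P19 cell.

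**Figure D4:**
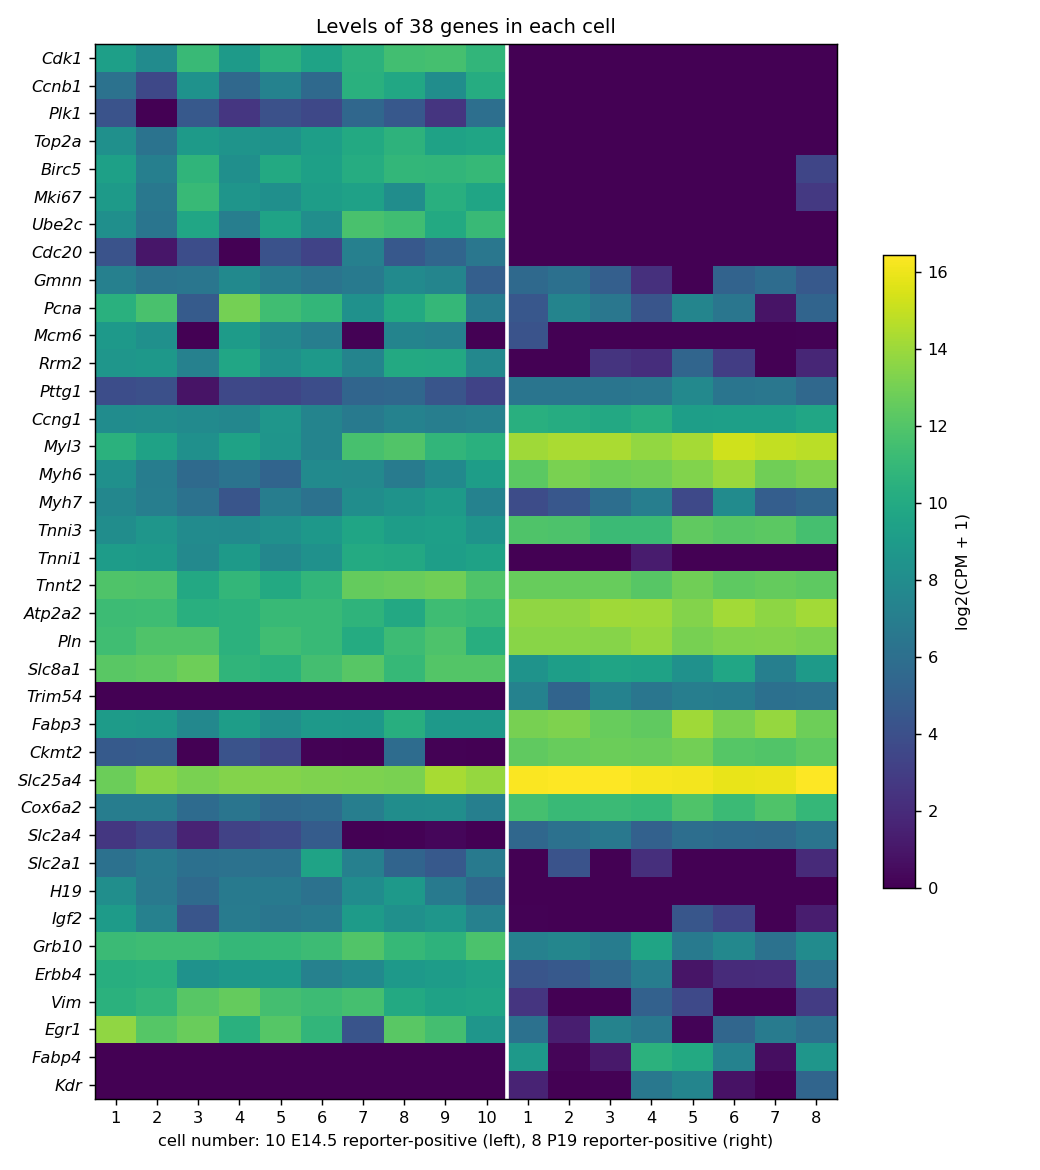
Levels of 38 genes (rows) in each cell (columns), as log2 of CPM plus 1, with the 10 E14.5 reporter-positive cells on the left and the 8 P19 ones on the right. Cdk1 to Cdc20 are dark in P19 cells except for reads of Birc5 and Mki67 in cell 8, while Myl3, Atp2a2, Fabp3, Ckmt2 and Slc25a4 are brighter in all 8.

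Energy genes were higher in nearly every P19 cell. The lists of fatty acid, citric acid cycle, oxidative phosphorylation and energy transfer genes held 135 measured genes, of which 95 were at least 2-fold higher and 4 lower (median 1.67). Of these, 76 were higher without overlap and 1 lower. Together they took 9.13, 11.6 and 15.1% of a cell's counts at E14.5 and 30.4, 34.4 and 37.9% at P19. P19 reporter-negative cells had sums of 320756, 343472 and 364717 CPM, inside the reporter-positive P19 range of 303570 to 378618 CPM. CPM is a share of a cell's total. With the 10 most abundant genes of each age left out of the totals, the median gene moved from -0.77 to -0.50.

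Of 31 genes for fatty acid uptake and oxidation, 28 were at least 2-fold higher and 1 lower (median 2.21), 19 without overlap. Lpl, the lipase that frees fatty acids from lipoproteins, had 1.37, 602 and 1755 CPM at E14.5 and 6990, 11311 and 15555 CPM at P19 (4.09). Cd36, a fatty acid transporter, had 0, 66.6 and 487 CPM at E14.5 and 928, 1193 and 1544 CPM at P19 (2.79, and 3.47 without E14.5 cell 9). Fabp3, the heart fatty acid-binding protein, had 203, 467 and 1292 CPM at E14.5 and 5613, 8804 and 17279 CPM at P19 (3.89). All P19 cells were above all E14.5 cells for these uptake genes. Inside the cell, Plin5, which coats lipid droplets beside mitochondria, was read in 1 E14.5 cell at 1.18 CPM and had 170, 202 and 308 CPM at P19. Ucp3, a mitochondrial carrier induced by fatty acids, had no count at E14.5 and 0.217, 9.24 and 45.5 CPM at P19. In beta-oxidation, Acadvl, the very-long-chain dehydrogenase, had 1.94, 15.4 and 32.4 CPM at E14.5 and 354, 444 and 731 CPM at P19 (4.48). Acadm, the medium-chain enzyme, had 338, 546 and 1352 CPM at E14.5 and 1595, 2703 and 3821 CPM at P19 (2.21). Acadl, the long-chain enzyme, was not higher, with medians of 2987 and 2215 CPM, a log2 ratio of -0.78 and overlap. The liver-type carnitine transferase Cpt1a was the lower member, with medians of 14.4 and 2.16 CPM (-1.10). It was above -1 without P19 cell 3, 5, 7 or 8 or E14.5 cell 8 (-0.82 without the last) and -2.05 without P19 cell 6.

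The citric acid cycle list had 17 of 30 genes at least 2-fold higher and 1 lower (median 1.09), 15 of them without overlap. Got1, cytosolic aspartate transaminase of the malate-aspartate shuttle, had 59.997, 102 and 191 CPM at E14.5 and 874, 1089 and 1652 CPM at P19 (3.08). Oxct1, which lets cells burn ketone bodies, had 440, 878 and 1779 CPM at E14.5 and 2404, 3755 and 4538 CPM at P19 (2.04). Both separated the ages fully. Idh2 and Dld, a mitochondrial isocitrate dehydrogenase and the E3 subunit of the pyruvate and oxoglutarate dehydrogenases, did not follow: Idh2 had medians of 1950 and 1314 CPM (-0.43) and Dld 1299 and 826 CPM (-0.69).

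Oxidative phosphorylation genes were at least 2-fold higher in 39 of 56 cases and lower in 1 (median 1.5), 35 of the higher ones without overlap. The list sum was 45126, 58534 and 78850 CPM at E14.5 and 127838, 143942 and 175240 CPM at P19. By complex, 17 of 20 genes of complex I were at least 2-fold higher (median 1.68), 2 of 4 of complex II (0.87), 6 of 8 of complex III with cytochrome c (1.36), 7 of 13 of complex IV (1.24) and 9 of 15 of ATP synthase (1.15). Every complex was thus above the all-gene median of -0.77. Ndufs7, an iron-sulfur subunit of complex I, had 6.69, 25.8 and 114 CPM at E14.5 and 295, 556 and 914 CPM at P19 (3.46, and 4.06 without E14.5 cell 8). Uqcrc1, a core subunit of complex III, had 2.16, 24 and 51.0 CPM at E14.5 and 198, 438 and 742 CPM at P19 (4.05). Cox5a of complex IV had 703, 923 and 1610 CPM at E14.5 and 5607, 8140 and 12498 CPM at P19 (2.99). The one lower gene was Cox6a1, the ubiquitous subunit whose muscle partner is Cox6a2, at 62.2, 191 and 498 CPM against 58.4, 85.7 and 198 CPM (-1.57). The table has no rows for genes encoded in mitochondrial DNA, and those subunits are not analysed here.

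Energy transfer genes carry phosphate and oxygen to the myofibrils. Slc25a4, the muscle and heart adenine nucleotide translocator, had 6895, 10250 and 19933 CPM at E14.5 and 61084, 80571 and 89526 CPM at P19 (2.69). Slc25a5, the translocator of dividing cells, had 6290, 7504 and 10145 CPM at E14.5 and 2856, 3465 and 4067 CPM at P19 (-1.20). Both separated the ages, in opposite directions. Ckmt2, mitochondrial creatine kinase, had 0, 5.13 and 56.3 CPM at E14.5 and 4082, 5956 and 7742 CPM at P19 (8.30, and 9.93 without E14.5 cell 8). Mb, myoglobin, had 14.7, 113 and 1769 CPM at E14.5 and 6123, 8775 and 15658 CPM at P19 (4.10, and 5.72 without E14.5 cell 8). The glycolysis and lactate list was divided: 11 of 27 were higher by 2-fold or more and 8 lower. Slc2a1, the fetal glucose transporter, had 22.6, 71.7 and 732 CPM at E14.5 and 0, 0 and 17.8 CPM at P19 (-5.61, and -6.73 without P19 cell 2 or -5.02 without E14.5 cell 6). Slc2a4, the insulin-responsive transporter, had 0, 3.69 and 27.1 CPM at E14.5 and 33.3, 56.4 and 96.8 CPM at P19 (4.18, and 4.83 without E14.5 cell 6). Pfkm, muscle phosphofructokinase, had 10.7, 25.1 and 68.0 CPM at E14.5 and 203, 271 and 492 CPM at P19 (3.55), and Eno3, muscle enolase, 192, 489 and 889 CPM and 1326, 1662 and 2726 CPM (1.74). None of these 4 overlapped. Pdk4, which shuts pyruvate dehydrogenase, had 0, 168 and 597 CPM at E14.5 and 426, 819 and 1202 CPM at P19 (2.23), with overlap. Gapdh stayed under 1.33 CPM in every cell; it has many processed copies in the genome, and how its reads were counted is uncertain.

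Pairs of related genes give the exchange within each cell, since the share of a pair does not depend on the cell's total. Shares were computed per kilobase of exon. Myh6 made up 28.4, 53.3 and 83.9% of Myh6 and Myh7 at E14.5 and 98.7, 99.7 and 99.9% at P19. Tnni3 made up 44.7, 57.4 and 72.8% of Tnni3 and Tnni1 at E14.5 and 100% at P19 in every cell after rounding. Cox6a2 made up 21.5, 36.8 and 49.7% of Cox6a2 and Cox6a1 at E14.5 and 95.2, 96.6 and 97.7% at P19. In these pairs the P19 cells lay within a few points of each other and the E14.5 cells were widely spread. Cox7a1 and Cox8b, further muscle forms of complex IV subunits, reached only 51.3, 54.4 and 60.8% and 46.7, 55.6 and 67.9% at P19, from 4.06, 10.1 and 24.4% and 0, 4.65 and 18.8% at E14.5. Slc2a4 made up 0, 3.42 and 13.9% of Slc2a4 and Slc2a1 at E14.5 and 79.9, 100 and 100% at P19. Ldhb, the heart lactate dehydrogenase subunit, had 35.1, 63.0 and 83.7% at E14.5 and 85.9, 90.5 and 92.6% at P19, and Slc25a4 39.5, 48.2 and 63.2% and 92.3, 93.8 and 95.4%. No cell overlapped in any of the pairs named so far. Of 18 pairs computed, 12 did not overlap and 6 did. Among the latter, Ckm, the muscle creatine kinase, made up 31.0, 81.7 and 99.0% of Ckm and Ckb at E14.5 and 98.2, 98.9 and 99.6% at P19. Ezh1 and Ezh2 are alternative catalytic subunits of Polycomb repressive complex 2. Ezh1 had 0, 0.0264 and 0.839% of that pair at E14.5 and 1.43, 54.7 and 100% at P19, again without overlap but with the widest spread among P19 cells.

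**Figure D5:**
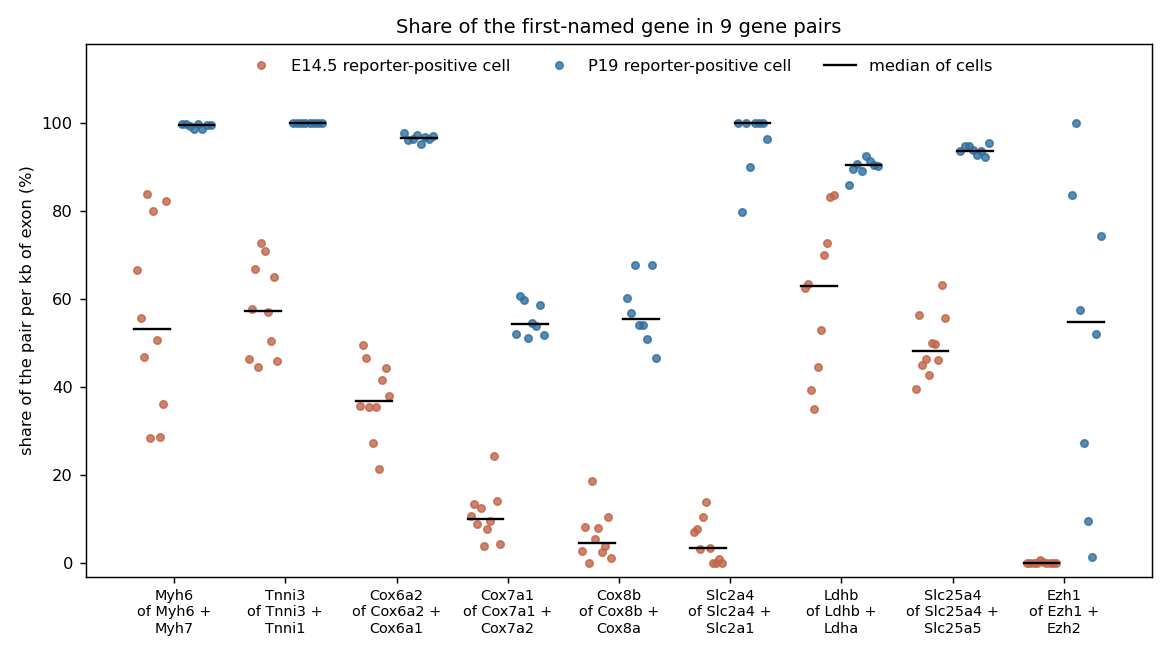
Share of the first-named gene in 9 gene pairs (y axis, % of the pair's counts per kilobase of exon) in each E14.5 and P19 reporter-positive cell, with bars at the median. The 9 pairs shown are among the 12 of 18 that do not overlap between the ages, P19 cells cluster near 100% for Myh6 and Tnni3, and Ezh1 spans 1.43 to 100% among P19 cells.

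Regulators of metabolism were mixed, with 14 of 32 nuclear receptors and coactivators at least 2-fold higher and 8 lower, and 4 of the higher ones without overlap. Rxrg, a retinoid X receptor, had no count at E14.5 and 23.3, 73.2 and 127 CPM at P19, at least 6134-fold higher. Thrb, a thyroid hormone receptor, had 0, 0 and 2.91 CPM at E14.5 and 6.65, 24.8 and 106 CPM at P19 (6.31, and 9.64 without E14.5 cell 9). Klf9, a target of thyroid hormone and glucocorticoid receptors, had 0, 0 and 16.2 CPM at E14.5 and 17.7, 73.7 and 144 CPM at P19 (5.95, and 7.85 without E14.5 cell 1). The fourth of these, Perm1 (listed as 2310042D19Rik), a muscle regulator downstream of PGC-1 and ERR, had 0, 2.46 and 17.2 CPM at E14.5 and 171, 320 and 618 CPM at P19 (6.57). Of the better-known regulators, Ppara, the fatty acid receptor, had medians of 5.33 and 55.4 CPM (2.12) and Esrra, ERR alpha, 3.94 and 18.6 CPM (2.64), both with overlap. The coactivator Ppargc1a had 246, 613 and 950 CPM at E14.5 and 166, 501 and 854 CPM at P19 (-0.08), and Esrrg, ERR gamma, was lower, with medians of 241 and 58.0 CPM (-1.78).

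Growth genes of the fetus were among the lowest at P19 outside the cell cycle. Of 22 imprinted growth genes, 20 were at least 2-fold lower and 1 higher (median -5.09, and -6.09 without P19 cell 8). Their sums of 6663, 8664 and 12760 CPM at E14.5 and 642, 1040 and 1949 CPM at P19 did not overlap. H19, the noncoding RNA of the Igf2 locus, had 43.1, 104 and 487 CPM at E14.5 and no count at P19. Igf2, a fetal growth factor, had 18.8, 150 and 529 CPM at E14.5 and 0, 0.0378 and 19.7 CPM at P19, a log2 ratio of -6.29 that was -7.06 or -6.87 without P19 cell 5 or 6. Grb10, an imprinted brake on insulin signalling, had 1562, 2463 and 3979 CPM at E14.5 and 73.7, 168 and 772 CPM at P19 (-3.54). H19 and Grb10 did not overlap, and Igf2 overlapped by 1 P19 cell. Of 29 oncofetal RNA-binding and chromatin factors, 25 were at least 2-fold lower and 1 higher (median -4.10), 10 without overlap. Igf2bp3, an oncofetal RNA-binding protein, had 19.0, 204 and 708 CPM at E14.5 and was read in 2 P19 cells at up to 1.02 CPM. Uhrf1, which guides maintenance DNA methylation, had 5.35, 38.8 and 174 CPM at E14.5 and no count at P19. H2afz, histone H2A.Z, had 378, 965 and 1480 CPM at E14.5 and 5.74, 28.4 and 37.7 CPM at P19 (-5.44). Ezh2 had 77.3, 260 and 368 CPM at E14.5 and 0, 8.17 and 43.1 CPM at P19 (-4.10, and -5.06 without P19 cell 6), and none of these 4 overlapped.

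Of 34 growth factor and receptor genes, 21 were at least 2-fold lower and 4 higher (median -1.96, and -2.55 without P19 cell 8). Erbb4, the neuregulin receptor, had 146, 479 and 1409 CPM at E14.5 and 0.933, 21.2 and 127 CPM at P19 (-3.89), without overlap. Its co-receptor Erbb2 had medians of 2.0 CPM at E14.5 and 0 at P19, where 2 cells had a read. Gpc3, a glypican that limits hedgehog signals, had 96.5, 653 and 2271 CPM at E14.5 and 0.449 CPM in P19 cell 8 alone. Sfrp1, a secreted Wnt antagonist, had 5.89, 44.7 and 103 CPM at E14.5 and no count at P19. Fgf1 was the gene without overlap in the other direction, at 0, 0.864 and 15.8 CPM against 23.1, 93.9 and 241 CPM (5.33). Cardiac transcription factors as a list stayed near all genes, with 14 of 33 at least 2-fold lower, 6 higher, a median of -0.88 and none without overlap. Hey2, a Notch-pathway repressor of the compact ventricle, was the lowest, at 0.765, 312 and 386 CPM against 0, 0.0722 and 15.6 CPM (-7.44, and -9.16 without P19 cell 1). Gata4 had medians of 34.1 and 7.26 CPM (-2.47), while Mef2c (215 and 141 CPM), Tead1 (447 and 492 CPM) and Hopx (867 and 924 CPM) had log2 ratios of -0.42, 0.31 and -0.08. Nfix, a nuclear factor I gene, had medians of 0.228 and 14.3 CPM (4.14, and 4.93 without E14.5 cell 10) with overlap.

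Of 27 splicing regulators, 17 were at least 2-fold lower and 2 higher (median -1.75), 7 without overlap. Srsf1, a serine-arginine splicing factor, had 440, 660 and 1121 CPM at E14.5 and 0, 42.3 and 89.9 CPM at P19 (-3.80). Hnrnpa2b1 had 2254, 3381 and 6851 CPM at E14.5 and 400, 723 and 1255 CPM at P19 (-2.09). Rbm20, which controls titin splicing, overlapped, with 283, 514 and 1226 CPM at E14.5 and 93.9, 297 and 361 CPM at P19 (-0.88). Of 26 translation and nucleolar genes, 14 were at least 2-fold lower and 1 higher (median -1.31, and -0.49 on the mean of log2 values). The lower share was near the 46.5% of all genes, and the higher share was under their 25.3%. The list sums, with medians of 10891 CPM at E14.5 and 2466 CPM at P19, did not overlap. Ncl, nucleolin, had 579, 995 and 1931 CPM at E14.5 and 169, 202 and 372 CPM at P19 (-2.48), and Npm1, nucleophosmin, 1518, 2372 and 3735 CPM and 374, 502 and 941 CPM (-2.13). Both separated the ages. Ribosomal protein genes had a median of -0.80, at the level of all genes, with 15 of 43 at least 2-fold lower and 3 higher. Rpl4 was the most different without overlap, at 2771, 11930 and 33158 CPM against 725, 1018 and 1337 CPM (-3.33). Ribosomal genes have many processed copies, and the division of their reads is uncertain.

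Matrix genes included 14 of 28 at least 2-fold lower and 8 higher, near the 46.5% and 25.3% of all genes. Vcan, versican of the fetal matrix, had 4.88, 205 and 561 CPM at E14.5 and no count at P19. Ncam1, a neural cell adhesion molecule, had 53.3, 257 and 514 CPM at E14.5 and 0, 1.00 and 7.95 CPM at P19 (-6.56, and -7.30 without P19 cell 8). Itga7, the laminin-binding integrin of muscle, had no count at E14.5 and 3.32, 7.56 and 16.1 CPM at P19, at least 753-fold higher. Each of these separated the ages. Dmd, dystrophin, overlapped, with medians of 880 and 311 CPM (-1.32).

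Markers of other cell types differed between the ages. Of 15 endothelial markers, 12 were at least 2-fold higher at P19 and 1 lower (median 6.57), with a summed level of 0, 1.40 and 99.8 CPM at E14.5 and 0.144, 389 and 2049 CPM at P19. P19 cells 1, 4, 5, 6 and 8 had sums of 204 to 2049 CPM, and cells 2, 3 and 7 had 2.44 CPM or less. Fabp4, the fatty acid-binding protein of capillary endothelium, had no count at E14.5 and 0.144, 273 and 1516 CPM at P19. Kdr, the VEGF receptor, had 0, 1.43 and 175 CPM at P19 and no count at E14.5. With the 3 P19 cells that had under 100 CPM of Fabp4 the endothelial median was -1.69. They were chosen by an endothelial gene, so a lower endothelial median was built into the choice. With those 3 cells, mitotic kinases and cyclins had a median of -11.23, DNA replication -6.64, fatty acids 2.2 and oxidative phosphorylation 1.48, against -11.72, -4.70, 2.21 and 1.5 with all 8. The direction of these 4 lists was the same in those 3 cells. Cnn1, calponin of smooth muscle, had 4.87, 25.8 and 117 CPM at E14.5 and no count at P19, and Rgs5, a pericyte gene, was read in 3 P19 cells and in no E14.5 cell. Vim, vimentin of fibroblasts and young cardiomyocytes, had 706, 2176 and 6156 CPM at E14.5 and 0, 2.45 and 33.6 CPM at P19 (-8.40, and -9.38 without P19 cell 4). The 12 fibroblast markers, Vim among them, summed to 947, 2567 and 6344 CPM at E14.5 and 9.91, 77.5 and 299 CPM at P19, and Vim made up most of the E14.5 sums. Of the 12, 6 were at least 2-fold lower at P19 and 5 higher (median -0.41). The collagens Col1a2 and Col3a1 were among the higher, read in 2 and 4 P19 cells at up to 12.6 and 106 CPM. The 13 mural markers summed to 227, 429 and 655 CPM at E14.5 and 495, 723 and 938 CPM at P19, with overlap. All 5 macrophage and blood markers and all 5 epicardial markers were at least 2-fold lower at P19, with median sums of 0 and 6.77 CPM there against 0.754 and 89.7 CPM at E14.5. The macrophage and blood sum was 248 CPM in E14.5 cell 8 and at most 28.4 CPM in the other E14.5 cells. Some of these ratios rested on 1 cell. Leaving out each cell gave -11.72 to 3.08 for Emr1, -6.50 to -0.25 for Alas2 and -2.47 to -0.50 for the epicardial Tbx18. The 11 atrial and conduction markers, Myl7 and Myl4 among them, had a median sum of 669.8 CPM at E14.5 and 7.64 CPM at P19. Of the 11, 9 were at least 2-fold lower at P19 and 2 higher (median -4.09). The part of RNA from other cell types in the differences was not tested.

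Genes induced by dissociation were higher at E14.5. Of 21 such genes, 15 were at least 2-fold lower at P19 and 1 higher (median -2.78), and the sum was 599, 5613 and 30414 CPM at E14.5 and 355, 661 and 1246 CPM at P19, with overlap. Egr1, an immediate-early factor, had 18.4, 3738 and 13700 CPM at E14.5 and 0.117, 66.7 and 162 CPM at P19 (-5.55). Fos had 0.943, 593 and 11084 CPM at E14.5 and 0.117, 14 and 195 CPM at P19 (-4.24, and -5.13 without P19 cell 3 or -3.03 without E14.5 cell 1). E14.5 cell 1 was the highest for both genes. Their part in the other differences was not tested. The Y-linked genes Eif2s3y and Ddx3y were read in 8 of 8 P19 cells and in 6 and 10 of 10 E14.5 cells. Levels differed more than detection: the 4 sex-linked genes measured summed to 242, 365 and 751 CPM at P19. At E14.5 their sums were 236 to 1400 CPM in cells 2 to 6. In E14.5 cells 1, 7, 8, 9 and 10 they were only 2.26 to 9.83 CPM. The labels give no sex, and its part in the differences was not tested.

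Genes with 20 CPM or more in the higher age and no overlap were ranked by the smallest ratio met when any 1 cell was left out. Predicted, clone, pseudogene and mitochondrial names were left out of the ranking. The 10 lowest at P19 were Cdk1, Bex4, Ube2c, Bex1, Trim59, Top2a, Anln, Spc25, Ccnb1 and Smc2. Of these, 7 belong to the division or anaphase lists. Bex4 and Bex1, small adaptor proteins, had 428, 1888 and 3197 CPM and 441, 792 and 1741 CPM at E14.5 and no count at P19. The 10 highest at P19 were Art1, Fabp4, Pla2g5, Ces1d, Trim54, Tuba8, Tmem100, Rxrg, Myom2 and Rai2. Art1, a muscle ADP-ribosyltransferase, had no count at E14.5 and 201, 330 and 444 CPM at P19, at least 29249-fold higher. Ces1d, a carboxylesterase that acts on lipids, had no count at E14.5 and 1.75, 145 and 517 CPM at P19, with P19 cell 5 the lowest. Tuba8, a tubulin of muscle, had no count at E14.5 and 57.5, 81.3 and 124 CPM at P19. Pla2g5, a secreted phospholipase, and Rai2 each had 2 counts at E14.5, in cell 8, and medians of 185 and 70.3 CPM at P19.

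The same lists were compared between reporter-negative cells of the 2 ages, which share no cell with the comparison above. Mitotic kinases and cyclins had a median of -8.71, DNA replication -5.96, fatty acids 1.75, oxidative phosphorylation 1.76 and imprinted growth genes -6.81. The median and shares over all genes were not computed for the reporter-negative cells. These medians and their signs are therefore read around 0 only, and counts of members past 2-fold are not given. The corresponding reporter-positive values were -11.72, -4.70, 2.21, 1.5 and -5.09. Of the 43 lists, 4 had medians of opposite sign in these comparisons. They were mural markers (0.90 in reporter-positive and -0.87 in reporter-negative cells), nuclear receptors (0.39 and -0.07), adrenergic genes (0.07 and -0.75) and sex-linked genes (1.10 and -2.74). Cdk1 had 0, 30.8 and 768 CPM in E14.5 reporter-negative cells and no count in any of the 4 P19 reporter-negative cells. Whether the age differences differ in size between reporter-positive and reporter-negative cells was not tested, since no animals are named.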

How the data were processed

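Per the labels' protocols, single ventricular cells were sorted for the reporter, checked by PCR for Tnnt2 and Pdgfrb, amplified as antisense RNA and sequenced from TruSeq libraries. The deposited values are whole-number counts of reads per gene (20728 genes, 33 cells), with no normalization, in 1 table by the authors. Per the submitters' processing notes, CASAVA 1.8.2, STAR 2.4.0j, HTSeq 0.6.1p1 and mm10 were used. Their settings, the strand rule and the treatment of duplicates and of reads that match several places are not given in the sources used here. Reads are not unique molecules, so limits from counts cover counting error only. The table has no rows for mitochondrial-encoded genes, and no 2 cells hold identical values.

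Groups came from the labels. CPM, log2 ratios of summed counts, ranges over cells, pair shares per kilobase of exon and promoter matches were computed in Python (3.11.15; pandas 2.3.3, numpy 2.4.6), critical values with scipy 1.17.1 and figures with matplotlib 3.10.9. Alternative scaling factors came from edgeR 4.0.16 (TMM) and DESeq2 1.42.0 (size factors) in R 4.3.3. No count test was run, since no animal is named and each age counts as 1 sample. Genes needed 10 counts over the 18 cells, and a group at 0 was set to 3 counts. The ratio script was tested on simulated data. The members and lists were chosen with earlier results of these data known. Named genes were Cdk1, Myl3, Gmnn, Mki67, Tnnt2, Pdgfrb, pair partners, the 3 most abundant members and the 3 with the largest ratio in each list, and the 10 leading genes each way with at least 20 CPM. The ranking of leading genes left out predicted, clone, pseudogene and mitochondrial names. Other genes were chosen for their role after their values were seen. Gene positions are from the mm10 annotation and promoter sequences from RefSeq (GRCm38.p6). Alternatives were other scalings, filters and floors, thinning to 11872374 counts, leaving out each cell, E14.5 cells of each range of title numbers, and leaving out P19 cells with 100 CPM of Fabp4. Some genes are not reported here.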

Additional observations from a re-analysis of the deposited data

Results flagged for a closer look

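Some values lay apart from the other cells of their group, by a gap that was large against the range of the group (Dixon's 95% criterion). Of 520 groups of values looked at, 64 held such a cell. Chance gives about 1 in 20 for normal values, a rate that does not hold for values mostly at 0, and in 17 of the 64 every other cell was at 0. P19 cell 5 held 13 of them. It was highest for the summed anaphase-promoting complex (1104 CPM), Pttg1 (216 CPM), Spc25 (0.35 CPM), Tyms (0.933 CPM), S100a1 (603 CPM), Dsp (1187 CPM) and Eef2 (497 CPM). The same cell was lowest for the summed Z-disc list (15088 CPM), Ppargc1a (166 CPM), Gata6 (21.7 CPM), Srsf1 (0 CPM), Srsf3 (0.466 CPM) and Ces1d (1.75 CPM). P19 cell 8 was highest for Pdgfrb (10.9 CPM), Mki67 (5.58 CPM), Ccna2 (4.74 CPM), Ccnb2 (7.33 CPM), Birc5 (10.05 CPM), Smc2 (0.0499 CPM), Fbxo5 (0.199 CPM), Plk4 (1.35 CPM), Fam83d (0.0499 CPM) and Gpc3 (0.449 CPM). For each of these 10 genes the next P19 cell had 0.144 CPM or less, so even a few counts can set a cell apart. Cell 8 also had the most counts of the P19 cells (40110117).

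P19 cell 7 was highest for Cav3 (200.2 CPM), Fxyd1 (253 CPM) and Plin5 (308 CPM), and lowest for Cenpa (0 CPM), Cacna1c (0.278 CPM) and Rbm20 (93.9 CPM). P19 cell 3 was highest for the summed citric acid cycle list (52159 CPM), Anln (0.0553 CPM), Lmnb2 (2.16 CPM) and Atf3 (16.5 CPM), and lowest for Rad21 (0.553 CPM). P19 cell 1 was highest for Mcm6 (17.2 CPM) and Hey2 (15.6 CPM), P19 cell 4 for Tnni1 (1.41 CPM) and P19 cell 6 for Dhrs7c (235 CPM).

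At E14.5, cell 2 was lowest for Cenpf (13.3 CPM) and Cdkn3 (1.09 CPM) and highest for Myom2 (0.674 CPM) and Plin5 (1.18 CPM). Cell 3 was lowest for Pttg1 (0.792 CPM), Fbxo5 (0 CPM), Mycn (0 CPM) and Lpl (1.37 CPM). Cell 4 was lowest for Cdkn1c (19.1 CPM) and cell 5 for Tnnc1 (68.5 CPM), while cell 6 was highest for Slc2a1 (732 CPM). Cell 7 was highest for the summed glycolysis list (5791 CPM) and Foxm1 (14.5 CPM), and lowest for Meis2 (86.0 CPM), Pdk4 (0 CPM) and Snrpd1 (166 CPM). Cell 8 was lowest for Cdkn1b (17.4 CPM) and Lin54 (3.42 CPM), and highest for Pla2g5 and Rai2 (0.0332 CPM each). Cell 9 was highest for Pdgfrb (1.72 CPM), Cox6c (5755 CPM), Thrb (2.91 CPM) and Cdh5 (0.0956 CPM), and lowest for Hey2 (0.765 CPM), and cell 10 was lowest for Gmnn (31.0 CPM).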

How the results depend on the processing

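No paired analysis was possible because the results come from no test and the cells' numbers tie no cell of 1 age to a cell of the other. Under the mean of log2(CPM + 1), 3689 genes were at least 2-fold lower and 2213 higher, and the translation list had a median of -0.49. With DESeq2 size factors 249 genes were lower without overlap. Fewer cells leave more genes without overlap by construction. With E14.5 title numbers 1 to 10 alone, 706 genes were lower and 526 higher without overlap, and the lamina median was -0.93. With title numbers 21 to 30 alone, which are E14.5 cells 7 to 10, these were 702 and 541, and the nuclear receptor median was 1.10. Without the P19 cells that had 100 CPM of Fabp4, 660 were lower and 571 higher without overlap. The median of all genes was then -1.34, the anaphase-promoting complex -1.46, cardiac transcription factors -1.90, matrix -1.55, endothelial markers -1.69 and Pdgfrb -2.92, and the shares of Cox7a1 and Cox8b were 59.9 and 67.9%. A lower endothelial median was built into choosing cells by Fabp4, and the cause of the other changes was not tested. The mean of the cells' CPM gave medians of -1.06 for calcium and -1.20 for matrix genes, and thinning -1.20 for matrix genes. Leaving out 1 cell at a time gave 5837 to 6531 genes lower, 3155 to 3695 higher, 386 to 436 lower and 336 to 401 higher without overlap. It gave medians of -1.82 to -0.83 for lamina, -1.16 to -0.72 for matrix genes, and -3.99 (without P19 cell 8) to 7.20 for Pdgfrb. Of 223 single genes, 216 stayed on the same side of 2-fold under TMM and 215 under DESeq2 size factors, with none reversed. Wee1 was -0.99 and Cpt1a -0.81 with DESeq2 factors. The number of animals is not given. A gene at 0 counts is known only to the 3-count limit.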
